A study of Macaca mulatta with 4 samples.

Results

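The collagen chains of the infant rhesus macaque (Macaca mulatta) amygdala were examined in 4 RNA sequencing libraries, chosen as every row of the count table whose gene symbol reads COL, a number, A, a number. The rule found 43 chains among 35395 gene rows, and 36 of them had 10 or more reads in at least 2 of the 4 libraries. By structure, the 43 fell into 11 fibrillar chains, 6 basement membrane chains (COL4) and 26 others, of which 10, 5 and 21 passed the read rule. All libraries came from wild type animals. The control libraries were 1 female (C-f) and 1 male (C-m), and the labels do not describe how the controls were handled. The sevoflurane libraries were 1 female (S-f) and 1 male (S-m), from animals that inhaled about 2.5 to 3% of this halogenated ether anaesthetic for 4 hours at about postnatal days 7, 21 and 35, with the amygdala taken at once after exposure on the last of these days. The comparison asks which collagen messages differed in the amygdala after repeated anaesthesia early in life. Nothing in the labels says that the libraries of a condition were separate animals beyond their difference in sex, so p-values measure the spread between these libraries, and a difference between the sexes cannot be told apart from one between animals or dissections.

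Collagens are secreted or membrane proteins whose chains wind into helical trimers built on short repeats that begin with glycine. Fibrillar chains assemble into the banded fibres of connective tissue, and in brain they lie mainly in the meninges and around vessels. Chains of COL4 form the meshwork of the basement membrane under endothelium and around pericytes, astrocyte endfeet and the choroid plexus. The others decorate fibrils, form beaded microfibrils, or span the membrane of cells, neurons among them.

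The libraries held 12477047 to 16293371 reads on genes, of which 7776 to 18220 lay on collagen chains, or 0.0571% to 0.112%. Levels are given as CPM, read counts scaled to a common library total with TMM factors, in which 10 reads correspond to 0.633 to 0.888 CPM. Neuronal markers were present throughout, with 10 of 10 detected and a summed level of 6382 to 7938 CPM. Within this sum SYT1 stood at 36.2 and 7.37 CPM in controls and 841 and 815 after sevoflurane. RBFOX3 stood at 298 and 240 against 162 and 101. All 10 genes of amygdala nuclei had reads, but FOXP2 had 1 and 0 in the controls and 235 and 35 after sevoflurane. By the test given below, 1 of 10 neuronal markers was called higher and 1 lower. The lower one was RBFOX3, a call lost with library totals, without C-f and without S-m. Of nuclei genes 4 were called higher and 1 lower, beside 21.3% and 19.4% of all tested genes. FOXP2, among the 4, entered the test through the sevoflurane libraries alone, and without it 3 of 9 were called higher. The call of TSHZ1, also among the 4, was lost without either sevoflurane library. C-m stood apart in genes of the choroid plexus, the epithelium that makes cerebrospinal fluid: 11 of 12 listed markers had a row, and they summed to 19713 CPM there against 58.7 in C-f, 39.8 in S-f and 12.4 in S-m. Among these markers KCNJ13 was at 0 in both sevoflurane libraries, FOLR1 in S-m, and KL and PRLR in C-f. In bulk tissue, fewer cells of a type and less RNA per cell cannot be told apart.

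Collagen chains moved in both directions after sevoflurane. Of 36 tested, 7 were called higher (COL25A1, COL19A1, COL4A5, COL4A1, COL24A1, COL11A1 and COL12A1) and 7 lower (COL1A1, COL18A1, COL1A2, COL6A2, COL9A2, COL6A1 and COL16A1), where a call is a Benjamini-Hochberg adjusted p under 0.05 over all 15417 genes tested by edgeR's quasi-likelihood F-test. That is 19.4% of the chains in each direction, beside 21.3% of all tested genes called higher and 19.4% called lower, so the share of chains called was near the background. Without C-m 7 chains were called higher and 7 lower. Without S-m the counts were 3 and 4. The 6 calls kept when any 1 library was left out, with library totals, with no filter, with sex as a term and with DESeq2 were COL19A1, COL4A1 and COL4A5 (higher) and COL1A1, COL1A2 and COL6A2 (lower).

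By class, and beside 21.3% of all tested genes called higher and 19.4% lower, the basement membrane chains had 2 of 5 higher and 0 lower. Their median log2 fold change, 1.98, was the value of COL4A4, which was not called and was the single chain of the 36 that passed the read rule through the sevoflurane libraries alone. Over the other 4 the median was 1.37, and with no filter it was 1.02 over 6. The fibrillar chains had 2 of 10 called higher and 2 lower, with a median of 0.29. The other chains had 3 of 21 called higher and 5 lower, with a median of −0.97. The median over all 36 chains was −0.26 and over all tested genes 0.0040. Without S-f the fibrillar median was −0.83 and the basement membrane median, again COL4A4, 1.11, and without C-m the median over the chains was 0.21. Both sevoflurane libraries lay above both controls for 11 chains and below them for another 11 (30.6% each), beside 37.7% of all tested genes above and 37.3% below, and in the remaining 14 chains the conditions overlapped.

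**Figure D1:**
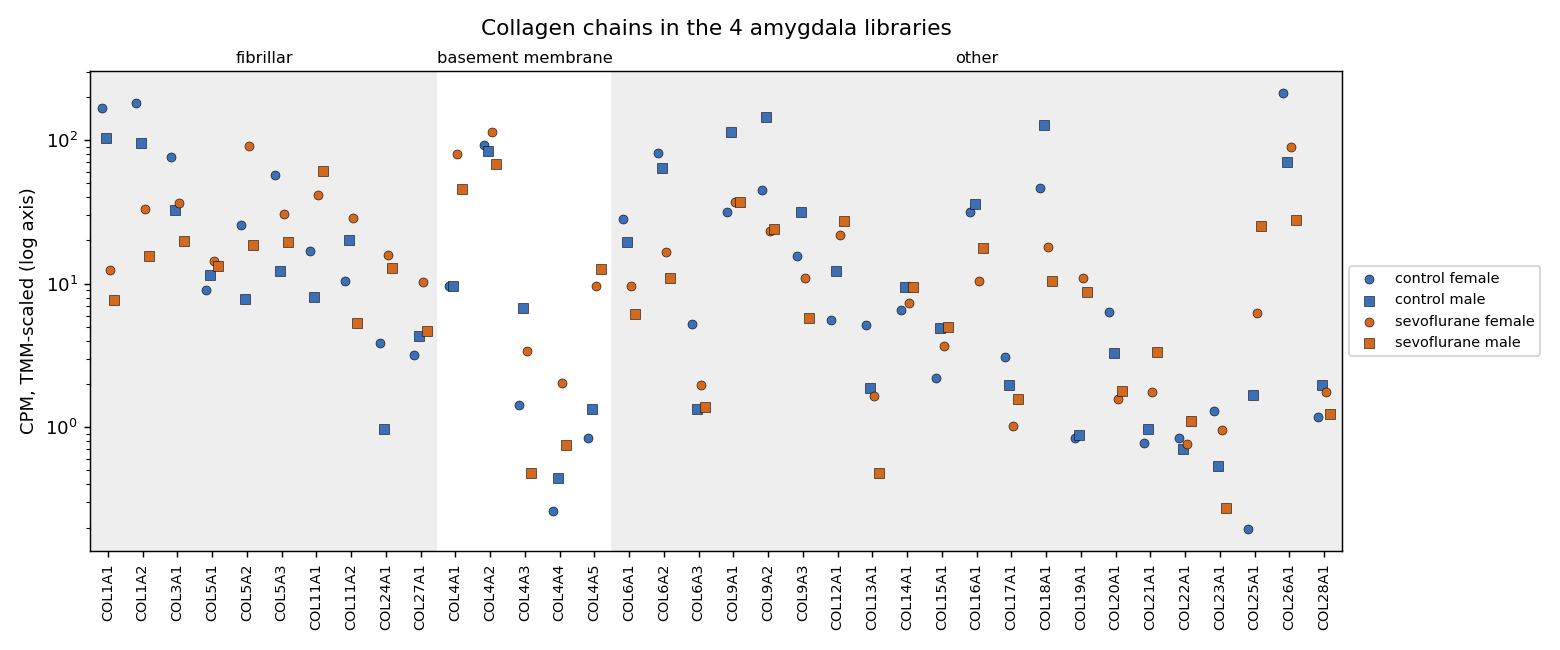
Level of each of the 36 collagen chains that passed the read rule, in CPM with TMM scaling on a log axis, with 1 point per library (circles female, squares male; blue control, orange sevoflurane). COL1A1 and COL1A2 sit lower in both sevoflurane libraries, COL4A1 and COL4A5 sit higher in both, and COL9A1, COL9A2 and COL18A1 are highest in C-m.

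COL4 chains took a larger share of the collagen reads in both sevoflurane libraries than in both controls. Basement membrane chains took 8.89% of collagen reads in C-f and 9.84% in C-m, against 26.0% in S-f and 23.9% in S-m. The exact 95% binomial intervals, which cover counting error only, were 8.48 to 9.31%, 9.31 to 10.4%, 25.3 to 26.8% and 23.0 to 24.9%. The conditions did not overlap. An exact two-sided permutation test over the 4 libraries gave p = 0.333, the smallest that this test allows with 2 against 2. COL4A1 alone took 0.807% and 0.913% of collagen reads in the controls and 9.95% and 8.50% after sevoflurane. With COL4A1 removed from both the class and the total, the share was 8.14% and 9.01% in controls against 17.9% and 16.9%. This share is one of a smaller total: all collagen chains summed to 1189 and 1051 CPM in controls and 803 and 534 after sevoflurane. The level of COL4 without COL4A1 overlapped between conditions, at 96.0, 93.8, 129 and 82.4 CPM in C-f, C-m, S-f and S-m. Fibrillar chains showed no such order, with 46.3% in C-f, 28.3% in C-m, 39.1% in S-f and 33.4% in S-m (exact permutation p = 1). The shares of the other chains were 44.8%, 61.8%, 34.9% and 42.6% in that order. These others include COL18A1, also a basement membrane chain, at 46.1, 127, 18.0 and 10.5 CPM in that order. The basement membrane share is thus that of COL4 alone.

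**Figure D2:**
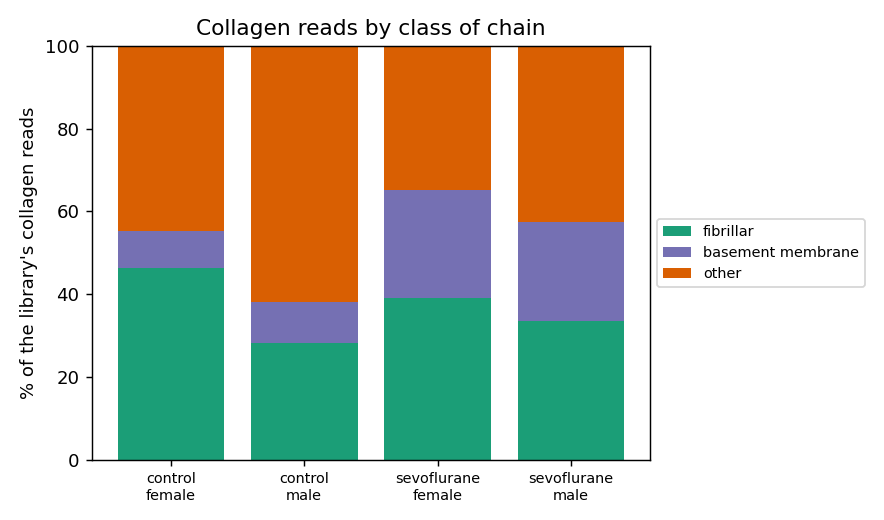
Share of each library's collagen reads (in percent, bars stacked to 100) on fibrillar, basement membrane (COL4 alone) and other chains. The basement membrane part is 8.89% and 9.84% of the control bars and 26.0% and 23.9% of the sevoflurane bars.

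Among the basement membrane chains, COL4A1 rose and its partner COL4A2 did not pass the test. Both encode the chains of the common type IV network, a trimer with more COL4A1 than COL4A2, and their genes lie next to each other in the T2T-MMU8v2.0 RefSeq table. COL4A1 (ENSMMUG00000022280) stood at 9.59 CPM in both control libraries, 79.8 in S-f and 45.4 in S-m. The sevoflurane libraries were both above the controls, by 2.71 ± 0.38 on the log2 scale (SE; edgeR adjusted p = 0.00379). COL4A2 (ENSMMUG00000022282) stood at 93.1, 84.6, 113 and 67.9 CPM in C-f, C-m, S-f and S-m, so the conditions overlapped (0.03 ± 0.32, edgeR adjusted p = 0.950). The 12 endothelial markers, whose part was not tested, summed to 511 and 534 CPM in controls and 280 and 284 after sevoflurane. Most of that difference lay in EGFL7 (141 and 150 against 23.3 and 15.7 CPM) and CLDN5 (111 and 149 against 21.5 and 20.4), while FLT1 (4.97 ± 0.75) and CDH5 (3.13 ± 0.79) were called higher and the median was −0.16.

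COL4A5, an X-linked chain altered in hereditary nephritis, rose as well. It stood at 0.848 and 1.33 CPM in C-f and C-m and at 9.68 and 12.7 in S-f and S-m (3.36 ± 0.55, edgeR adjusted p = 0.00581). Its X-linked partner COL4A6 had 6 to 9 reads in every library and failed the read rule. COL4A3 and COL4A4 complete the network of kidney and other specialised membranes. COL4A4 had 4 and 5 reads in the controls and 32 and 11 after sevoflurane (1.98 ± 0.87, edgeR adjusted p = 0.111). COL4A3 stood at 1.44 CPM in C-f, 6.75 in C-m, 3.42 in S-f and 0.481 in S-m, at −1.05 ± 1.09 on the log2 scale (edgeR adjusted p = 0.466).

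The chains of type I collagen, the main fibre of meninges and vessel walls, had the largest falls among fibrillar chains. COL1A1 (ENSMMUG00000001467) stood at 168 CPM in C-f, 103 in C-m, 12.5 in S-f and 7.69 in S-m. Both sevoflurane libraries were far below both controls, at −3.74 ± 0.41 on the log2 scale (edgeR adjusted p = 0.00230). COL1A2 (ENSMMUG00000039654), its partner, stood at 180, 95.5, 33.2 and 15.6 CPM in the same order, again without overlap (−2.50 ± 0.48, edgeR adjusted p = 0.00957; −3.13 without S-f). COL3A1, which co-polymerises with type I and is a ligand of the receptor ADGRG1 in developing cortex, was not called. Its levels were 76.8, 32.7, 36.4 and 19.8 CPM, and S-f lay above C-m (−0.96 ± 0.50, edgeR adjusted p = 0.163). COL3A1 passed the threshold with sex as a term (edgeR adjusted p = 0.0256), with no filter and without C-m, and its log2 fold change was −0.20 without C-f. Beside the type I chains, 9 fibroblast and meningeal markers summed to 331 and 470 CPM in controls and 112 and 105 after sevoflurane, and their part in these values was not tested. FBLN1 alone made up 44.8 and 256 CPM of the control sums and 7.72 and 9.41 after sevoflurane. OGN, CEMIP and ISLR overlapped between conditions.

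A pair of fibrillar chains rose, COL11A1 and COL24A1. COL11A1, which nucleates thin fibrils, stood at 16.9 and 8.08 CPM in the controls and at 41.7 and 61.1 in S-f and S-m (2.04 ± 0.45, edgeR adjusted p = 0.0140). COL24A1, a fibrillar chain of developing bone, stood at 3.85 and 0.977 CPM in the controls and at 15.8 and 12.8 after sevoflurane (2.54 ± 0.69, edgeR adjusted p = 0.0280). In both, every sevoflurane library was above every control. COL11A1 was at 2.69 without C-f. Its call was lost without S-m, and that of COL24A1 without either sevoflurane library. COL24A1 was at 3.88 without C-f and 1.86 without C-m.

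Type V chains, which limit fibril width, were not called by condition. COL5A1 stood at 9.0, 11.5, 14.4 and 13.2 CPM in C-f, C-m, S-f and S-m (0.42 ± 0.38). COL5A2 stood at 25.6, 7.82, 90.9 and 18.7 CPM, with the female above the male in each condition (1.71 ± 0.83, edgeR adjusted p = 0.143). With sex as a term COL5A2 was called higher (1.55, edgeR adjusted p = 0.00129), and without S-f it was at 0.16. COL5A3 stood at 56.9, 12.3, 30.4 and 19.4 CPM, with overlap (−0.48 ± 0.67). The last pair of fibrillar chains, COL27A1 (0.98 ± 0.58) and COL11A2 (0.15 ± 0.76), were not called, and COL2A1 of cartilage had 1, 15, 1 and 3 reads and failed the read rule.

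**Figure D3:**
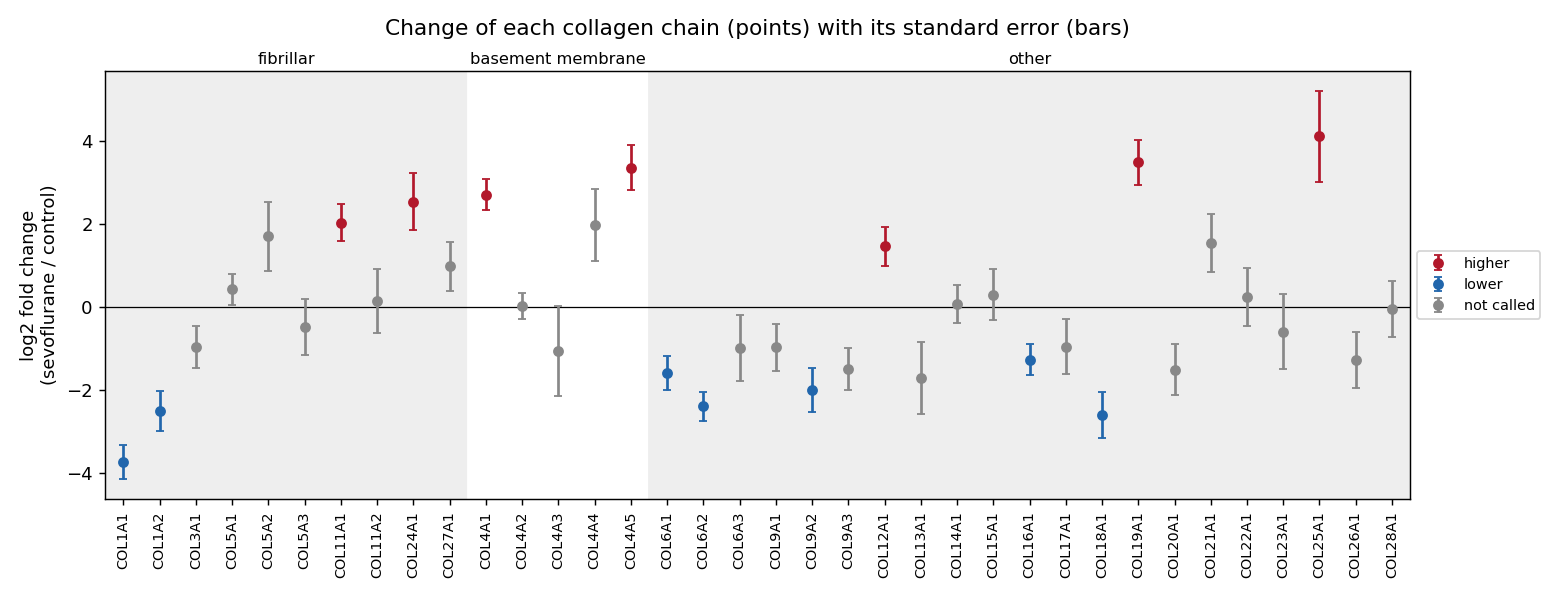
Log2 fold change of each of the 36 tested chains after sevoflurane (points), with its standard error (bars), by class and coloured by edgeR call. COL25A1 (4.11), COL19A1 (3.49) and COL4A5 (3.36) are the highest points and COL1A1 (−3.74), COL18A1 (−2.60) and COL1A2 (−2.50) the lowest.

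Type VI collagen, a beaded microfibril of pericellular matrix, fell in its α1 and α2 chains. COL6A2 stood at 81.3 and 64.0 CPM in C-f and C-m and at 16.7 and 10.9 in S-f and S-m (−2.39 ± 0.34, edgeR adjusted p = 0.00396). COL6A1, its genomic neighbour, stood at 28.1 and 19.6 CPM in controls and at 9.68 and 6.18 after sevoflurane (−1.59 ± 0.41, edgeR adjusted p = 0.0238). Neither chain overlapped between conditions, and the call of COL6A1 was lost without C-f and without S-m. COL6A3 was not called (−0.98 ± 0.80), with 5.22 CPM in C-f and 1.33 to 1.96 CPM in the other libraries. COL6A5 had 1 to 3 reads per library. COL6A6 had 0 reads in both controls and 11 after sevoflurane, at least 3.21-fold higher against a floor of 3 reads over the control libraries, and 10 of the 11 lay in S-f.

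Fibril-associated chains, which sit on the surface of fibrils, split in direction. COL19A1, which in rodents is made by subsets of interneurons and takes part in forming inhibitory synapses, stood at 0.848 and 0.888 CPM in the controls and at 10.9 and 8.79 in S-f and S-m (3.49 ± 0.54, edgeR adjusted p = 0.00495). COL12A1, bound to type I fibrils under tension, stood at 5.61 and 12.3 CPM in controls and at 21.8 and 27.5 after sevoflurane (1.46 ± 0.46, edgeR adjusted p = 0.0462). The call of COL12A1 was kept without C-m, at 2.10, and lost without any 1 of the other libraries. COL16A1 fell from 31.7 and 35.7 CPM to 10.4 and 17.6 (−1.27 ± 0.37, edgeR adjusted p = 0.0348), a call lost with library totals, without C-m and without S-f. COL20A1 (−1.51 ± 0.62), COL21A1 (1.54 ± 0.69), COL14A1 (0.07 ± 0.45) and COL22A1 (0.24 ± 0.71) were not called, and of these COL14A1 and COL22A1 overlapped between conditions.

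Type IX collagen, a fibril-associated collagen of cartilage and of the eye, was set apart by C-m. COL9A2 stood at 44.9 CPM in C-f, 144 in C-m, 23.3 in S-f and 24.0 in S-m (−2.0 ± 0.54, edgeR adjusted p = 0.0279). COL9A1 stood at 31.5, 114, 37.3 and 37.0 CPM, so that C-f was the lowest (−0.97 ± 0.57, edgeR adjusted p = 0.210). COL9A3 stood at 15.7, 31.4, 11.0 and 5.77 CPM, with the conditions apart (−1.49 ± 0.51, edgeR adjusted p = 0.0568). Without C-m the log2 fold changes were −0.96 for COL9A2, whose call was lost, 0.21 for COL9A1 and −0.94 for COL9A3. Without C-f COL9A1 was called lower, at −1.60 (edgeR adjusted p = 0.00701). The call of COL9A2 was lost as well without either sevoflurane library, and COL9A2 was at −2.58 without C-f. COL9A3 was called lower with sex as a term (−1.47, edgeR adjusted p = 0.0181), with DESeq2, with no filter and without C-f.

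COL18A1, a chain of vascular and epithelial basement membranes and the source of endostatin, followed a like order. It stood at 46.1 CPM in C-f, 127 in C-m, 18.0 in S-f and 10.5 in S-m (−2.60 ± 0.55, edgeR adjusted p = 0.0127). Unlike that of COL9A2, its call was kept without C-m, at −1.73 (edgeR adjusted p = 0.0124), and it was lost without S-m (edgeR adjusted p = 0.0706). The part of choroid plexus tissue in these values was not tested, and without C-m its markers differed in both directions. With all libraries, 4 of 9 tested choroid plexus markers were called lower and 0 higher, beside 19.4% and 21.3% of all tested genes. KCNJ13, with 15 and 364 reads in the controls and 0 after sevoflurane, entered the test through the control libraries alone. Leaving KCNJ13 aside, 3 of 8 were called lower. Without C-m the 4 called markers were still lower, at −5.52 (SLC13A4), −6.93 (KCNJ13), −1.8 (ECRG4) and −1.52 (KCNE2) on the log2 scale. The calls of ECRG4 and KCNE2 were lost in that fit. Those of KCNJ13, ECRG4 and KCNE2 were lost without either sevoflurane library, and that of KCNE2 also with library totals. KL, the 1 tested marker with both sevoflurane libraries above both controls, had 0 reads in C-f and 43 and 70 after sevoflurane. Both sevoflurane libraries were also above C-f in CLIC6 (4.56 and 0.962 CPM against 0.522) and SLC4A5 (3.29 and 1.03 against 0.261). The same held for PRLR (0.253 and 0.687 CPM against 0). TTR stood at 11.6 CPM in C-f, 23.3 in S-f and 2.34 in S-m. COL15A1, the other multiplexin, stood at 2.22, 4.89, 3.67 and 5.01 CPM (0.30 ± 0.62).

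Of the transmembrane collagens, COL25A1 had the largest rise of the 36 tested chains. This neuronal collagen, first isolated from amyloid plaques, stood at 0.196 CPM in C-f, 1.69 in C-m, 6.20 in S-f and 25.4 in S-m. The lower sevoflurane library was above the higher control (4.11 ± 1.10, edgeR adjusted p = 0.0273). Its call was lost without S-m (2.75, edgeR adjusted p = 0.171), and the log2 fold change was 6.26 without C-m, 3.25 without C-f and 4.80 without S-f. COL13A1 (−1.72 ± 0.87), COL17A1 (−0.95 ± 0.66) and COL23A1 (−0.59 ± 0.91) were not called, with 7 to 79, 16 to 47 and 4 to 20 reads per library. COL26A1, a secreted chain outside the main families, stood at 213, 70.9, 89.8 and 27.5 CPM in C-f, C-m, S-f and S-m, and was not called (−1.27 ± 0.69). It was called lower with sex as a term (−1.30, edgeR adjusted p = 0.00152), and was at −0.26 without C-f. COL28A1 overlapped between conditions (−0.05 ± 0.67), and the network chains COL8A1, COL8A2 and COL10A1 had 0 to 17 reads per library and failed the read rule.

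Partner chains and neighbouring genes changed in unequal measure. The ratio of the reads of one chain to those of another in the same library does not depend on library scaling, and it was taken for 12 pairs that share a trimer type or lie next to each other, picked with the values known. Since lengths were not measured, a ratio says nothing of which chain was more abundant. COL4A1 had 0.103 reads per read of COL4A2 in C-f and 0.113 in C-m, against 0.704 and 0.669 in S-f and S-m. That is 6.83-fold higher in females and 5.90-fold higher in males, and the intervals from counting error (0.0863 to 0.122 and 0.0921 to 0.139, against 0.655 to 0.757 and 0.605 to 0.739) were apart.

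COL1A1 had 0.935 and 1.08 reads per read of COL1A2 in C-f and C-m and 0.378 and 0.493 after sevoflurane, 2.47-fold lower in females and 2.18-fold lower in males. The ratio of COL6A1 to COL6A2 went from 0.345 and 0.307 to 0.580 and 0.566, and that of COL9A1 to COL9A2 from 0.701 and 0.794 to 1.60 and 1.54. The COL9A1 to COL9A2 ratio thus sat close together within each condition although the level of both chains was several times higher in C-m. That of COL9A2 to COL9A3 did not, at 2.87 and 4.59 in C-f and C-m and 2.13 and 4.15 in S-f and S-m. COL3A1 had 2.99 and 4.18 reads per read of its neighbour COL5A2 in controls and 0.400 and 1.06 after sevoflurane. For COL9A1 and its neighbour COL19A1 the ratio went from 37.2 and 129 to 3.42 and 4.21, with 13 and 10 reads of COL19A1 in the controls. Of the 10 pairs with 10 or more reads of both chains in every library, the conditions did not overlap in 7. That is near the share of single genes, of which 37.7% were higher and 37.3% lower without overlap among all tested. Each of these 7 pairs had an exact permutation p of 0.333, the smallest possible here. The conditions overlapped in COL5A1 to COL5A2, COL9A2 to COL9A3 and COL11A1 to COL11A2. The sources used here do not say whether the counting used strand, so reads near the shared ends of neighbouring genes are uncertain.

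**Figure D4:**
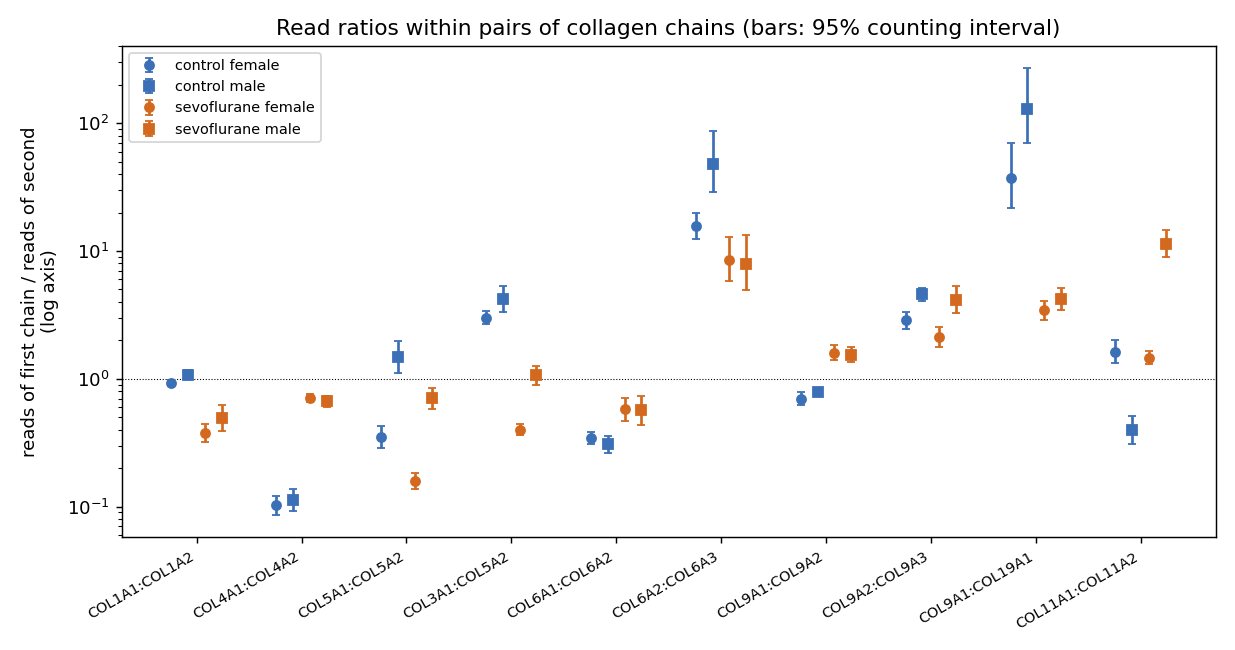
Reads of the first chain divided by reads of the second in each library, on a log axis, for the 10 pairs with 10 or more reads of both chains in every library (circles female, squares male; blue control, orange sevoflurane; bars, 95% counting interval). The COL4A1 to COL4A2 ratio is 0.103 and 0.113 in controls and 0.704 and 0.669 after sevoflurane.

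Between the sexes, 3 of 36 chains were called by edgeR with condition and sex as terms, beside 1.84% of all tested genes. COL5A2 was lower in the male library of both conditions (log2 male over female −2.01 ± 0.34, edgeR adjusted p = 0.00472), and so was COL26A1 (−1.64 ± 0.29, edgeR adjusted p = 0.00673). COL25A1 was higher in the male library of both conditions (2.34 ± 0.55, edgeR adjusted p = 0.0368). This test had 1 residual degree of freedom. COL5A3, with 56.9 against 12.3 CPM in C-f and C-m and 30.4 against 19.4 after sevoflurane, was called when no filter was used.

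The change after sevoflurane had the same sign in both sexes for 28 of 36 chains and opposite signs for 8, which is 22.2% beside 14.6% of all tested genes. The female and male changes lay close together for COL1A1 (−3.73 and −3.71 log2), COL1A2 (−2.43 and −2.60), COL6A2 (−2.27 and −2.53) and COL4A5 (3.31 and 3.12). For COL18A1 the change was −1.35 in females and −3.58 in males, and for COL9A2 −0.94 and −2.58. With 1 library per sex and condition, a difference between the sexes in response could not be tested.

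**Figure D5:**
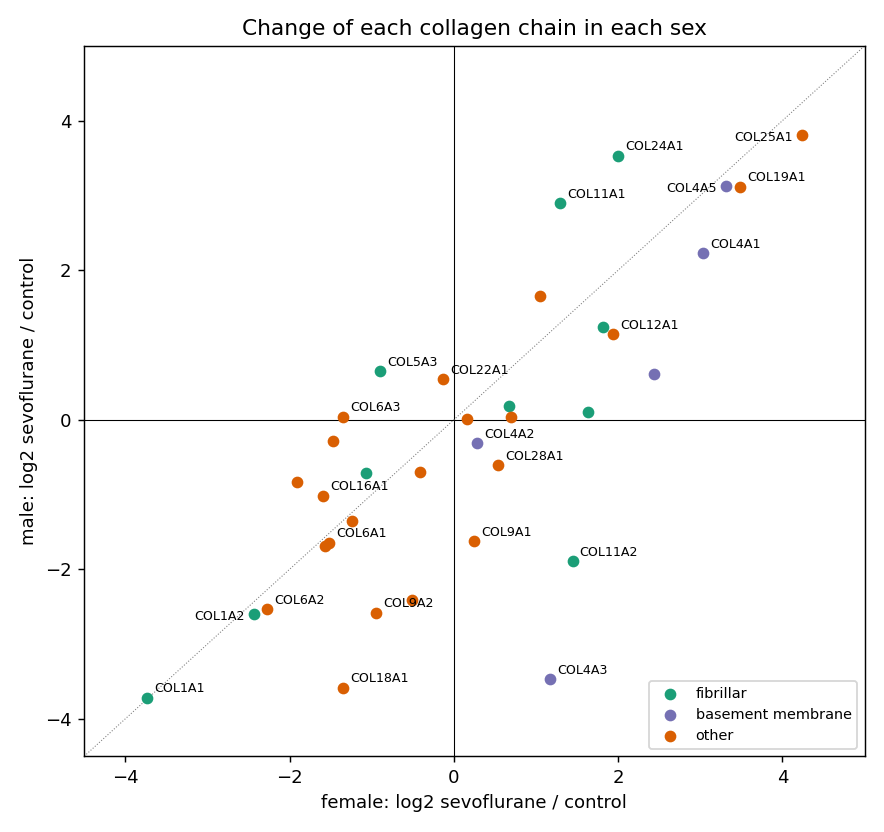
Log2 change after sevoflurane in the male libraries against that in the female libraries for the 36 chains, computed with a prior count of 2 and coloured by class; the dotted line marks equal change. COL1A1 lies on the line at −3.73 and −3.71, and COL4A3 and COL11A2 lie in the quadrant that is higher in females and lower in males.

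Genes that make, cross-link, bind and degrade collagen were read from lists written with earlier results of these data known. Of 19 enzymes and chaperones of collagen folding, 3 were called higher, 3 lower and 13 not (median −0.56, log2), beside the 21.3% and 19.4% of all tested genes given above. COLGALT2, which adds galactose to hydroxylysine, rose by 4.01 ± 0.74, PLOD2, a lysyl hydroxylase, by 2.63 ± 0.66 and MIA3, the export receptor of bulky procollagen, by 1.77 ± 0.27 (log2). PPIB, the cyclophilin of the prolyl 3-hydroxylase complex, changed by −2.44 ± 0.31, P4HB, a subunit of prolyl 4-hydroxylase, by −1.39 ± 0.26 and FKBP10 by −1.34 ± 0.34. SERPINH1, the collagen chaperone HSP47, was not called (−0.08 ± 0.79), with 64.4, 95.1, 133 and 18.8 CPM. COLGALT2 was at 5.52 without C-f and 3.30 without C-m, and PLOD2 at 3.26 without S-f and 1.52 without S-m. Without S-m the calls of PLOD2 and FKBP10 were lost, and that of FKBP10 also without C-f.

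Of 13 tested genes of processing and cross-linking, 2 were called higher and 2 lower (median −0.25), near the 21.3% and 19.4% of all genes. PCOLCE, an enhancer of procollagen C-proteinase, stood at 29.6 CPM in C-f, 82.9 in C-m, 1.39 in S-f and 0.206 in S-m, and fell by 6.10 ± 0.91 (log2). It was at −8.02 without S-f and −5.22 without C-m. LOXL1, a lysyl oxidase, changed by −2.18 ± 0.45. TLL1, a tolloid proteinase, had 1 and 2 reads in the controls and 32 and 83 after sevoflurane. It entered the test through the sevoflurane libraries alone, and without it 1 of 12 was called higher. PXDN, the peroxidase that cross-links COL4, rose by 2.71 ± 0.48. The calls of LOXL1 and TLL1 were lost without S-m.

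Of 10 tested receptors, 2 were called higher and 2 lower (median 0.62), again near the 21.3% and 19.4% of all genes. The integrin chain ITGA1, which prefers COL4, stood at 1.70 and 0.0888 CPM in controls and 20.5 and 14.9 after sevoflurane (4.24 ± 0.98), and was at 7.52 without C-f and 3.34 without C-m. ITGA2 had 0 and 1 reads in the controls and 14 and 22 after sevoflurane. It entered the test through the sevoflurane libraries alone, and without it 1 of 9 receptors was called higher. LAIR1 (−1.43 ± 0.47), an inhibitory receptor of leukocytes, and MRC2 (−1.20 ± 0.37), which takes up collagen, were lower. All 4 receptor calls were lost without S-m. Those of ITGA1, ITGA2 and LAIR1 were also lost without S-f, that of ITGA2 without C-f, that of LAIR1 without C-m, and that of MRC2 without either control. With library totals LAIR1 and MRC2 were not called. ADGRG1 (−0.25 ± 0.24), DDR1 (−0.69 ± 0.27) and ITGB1 (0.72 ± 0.26) were not called.

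Among 7 tested collagenolytic proteases and inhibitors (median −0.38), MMP16 (4.03 ± 0.48) and TIMP2 (3.02 ± 0.32) rose, and TIMP1 (−2.98 ± 0.48), MMP2 (−2.76 ± 0.77) and MMP14 (−1.56 ± 0.45) fell. Those are 2 called higher and 3 lower of 7, beside 21.3% and 19.4% of all tested genes. The calls of MMP2 and MMP14 were lost without C-m and without either sevoflurane library, and that of MMP14 with library totals, and MMP2 was at −1.27 without C-m and −3.47 without C-f. TIMP1 was at −3.67 without S-f. Of 12 partners of COL4 in the basement membrane (median 0.15), LAMC1, the common laminin γ1 chain, rose by 3.49 ± 0.42 and LAMB2 changed by −1.68 ± 0.46, a call lost without C-m and without S-m. The other 10 were not called, among them HSPG2 (−0.73 ± 0.58), NID1 (0.36 ± 0.36) and SPARC (0.0046 ± 0.25). The partners called were thus 1 of 12 in each direction, below those shares of all genes.

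Markers of cells that deposit collagen were read beside these chains. Of 10 fibroblast and meningeal markers 9 had a row and 8 were tested. Of these 0 were called higher and 5 lower (DCN, FBLN1, DPT, MGP and PI16), and their median was −1.99 (log2), beside 21.3% of all tested genes called higher and 19.4% lower. Of the markers with a row, ISLR was at 0 in S-m. Without S-m the calls of DCN, FBLN1, DPT and MGP were lost. FBLN1 and DCN also lost theirs without S-f, and DCN without C-f and with library totals. The 12 endothelial markers had 2 called higher (FLT1 and CDH5) and 3 lower (CLDN5, EGFL7 and ESAM), with none at 0, counts near those shares of all genes. The call of CDH5 was lost without either sevoflurane library and that of ESAM without S-m. The 12 markers of pericytes and smooth muscle had 2 called higher (RGS5 and ABCC9) and 2 lower (ACTA2 and TAGLN), with a median of −0.85, a sum of 311 and 225 CPM in controls and 225 and 151 after sevoflurane, and ABCC9 at 0 in C-m. ABCC9, with 4 and 0 reads in controls and 133 and 109 after sevoflurane, entered the test through the sevoflurane libraries alone, and without it 1 of 11 was called higher. Beside them, 63 of 72 ribosomal protein genes, whose messages are short, were called lower and 0 higher, with a median of −1.76. The part of these cells and of this class of transcript in the collagen values was not tested.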

How the data were processed

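Total RNA of the amygdala was sequenced in 4 libraries made by Illumina protocols, per the labels. The deposited values are raw read counts per Ensembl gene, 1 column per library, as the authors made them. The submitters' processing notes name HISAT2, a read aligner. The sources used here do not give its version, the counting program, strand, genome build or annotation. Symbols came from a table that named 24173 of 35395 IDs. Next-door genes came from the RefSeq table of assembly T2T-MMU8v2.0, whose build may differ from that of the counts.

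All genes were fitted together. edgeR 4.0.16 (R 4.3.3) kept 15417 genes (filterByExpr, minimum count 10, by group), scaled them by TMM (factors 0.904 to 1.10) and compared sevoflurane with control by the quasi-likelihood F-test, fitting condition alone (2 residual degrees of freedom). Standard errors came from the F statistic. Both CPM values of a condition are printed in place of a mean and SD. Intervals and floors (3 reads) cover counting error only. Alternatives were library totals, DESeq2 1.42.0, no filter, sex as a term and leaving out each library. The fit was tested on simulated data.

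The chains and lists were chosen with earlier results of these data known. Values were printed for every chain that passed the read rule, full statistics for COL4 chains, COL1A1, COL1A2, COL3A1 and the 6 called chains of largest rise and fall, and, per other list, the 3 called genes of largest rise and fall. Others named (the chains not called, SERPINH1, ADGRG1, DDR1, ITGB1, HSPG2, NID1, SPARC) were chosen after their values were seen.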

Additional observations from a re-analysis of the deposited data

Results flagged for a closer look

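In 5 chains the female and the male libraries moved in opposite directions after sevoflurane, each by more than the 95% counting interval of its reads. The difference between the sexes was not tested, since there was 1 library per sex and condition. The largest was COL4A3, with 22 and 54 reads in the control and sevoflurane female and 76 and 7 in the males, a female minus male log2 difference of 4.65. For COL11A2, with 159 and 450 reads in females and 228 and 78 in males, it was 3.34, and for COL9A1 1.86. For COL5A3 it was −1.55, lower in females and higher in males. For COL4A2 it was 0.60, from changes of 0.28 in females and −0.32 in males.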

How the results depend on the processing

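Beside 7 chains called higher and 7 lower, the counts were 7 and 6 with library totals, 8 and 8 with DESeq2 and 8 and 10 with sex as a term. With no filter 8 were higher and 11 lower, in a fit that tested 43 chains. Leaving out 1 library at a time gave 3 to 7 higher and 4 to 8 lower, and the lowest counts were without S-m. The 14 called chains had the same direction under all 8 alternatives. COL9A1, called lower with no filter and without C-f (−1.60), was at 0.21 without C-m, and the cause was not tested. Of all tested genes, 12.2% were called higher and 9.32% lower without S-m (1967 and 1502, beside 3282 and 2996). Library totals moved the median over all genes (log2) from 0.0040 to 0.24 and that of the chains from −0.26 to −0.03, with 25.3% of all genes called higher and 14.7% lower. Between the sexes 3 chains were called with library totals and with DESeq2 and 4 with no filter. The labels carry no replicate numbers that pair libraries other than by sex, which the fit with sex as a term covers. COL22A1, COL23A1 and COL28A1 had 4 to 28 reads per library, and their standard errors were 0.67 to 0.91 (log2).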
